A study of Mnemiopsis leidyi with 31 samples.

Results

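The last hour of an hourly series on embryos of the comb jelly Mnemiopsis leidyi, 9 against 8 hours post fertilization (hpf), is described here. It rests on 7 of the 31 RNA-seq libraries, the 2 libraries collected at 9 hpf and the 5 collected at 8 hpf, which were taken by the hour in their labels. The libraries of 9 hpf carry the codes 2013_49 and 2012_37. Those of 8 hpf carry the codes 2013_18, 2013_28, 2013_48, 2012_18 and 2012_N8B. Every library was made from whole, untreated embryos of wild-caught animals, with 100 to 200 embryos pooled for a stage and RNA purified by its poly(A) tail. Codes start with 2013 or 2012, and both years are present at both hours, with 4 libraries of 2013 and 3 of 2012 in all. The series calls the libraries of an hour biological replicates. Which of them shared a spawning is not labelled, so p-values measure only the spread between these libraries.

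An animal embryo starts on messenger RNA that the mother stored in the egg, and it later clears much of that store while its own genome is switched on. Levels of a transcript in whole embryos therefore combine stored RNA, new RNA and loss. Late embryos of Mnemiopsis build the structures of the swimming cydippid, among them the comb plates with their beating cilia, the tentacles, the pharynx and the apical sense organ. In RNA from whole embryos, fewer cells that hold a transcript and less of it in each cell cannot be told apart.

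The deposited table listed 31067 transcript records. The records carry numbers in place of gene names, and 0 of 31067 matched a reference table of gene names, so no role can be given to any of them. Of these records, 22121 had enough counts in the 7 libraries to be tested. Total counts were 48837470 and 70712060 at 9 hpf, and ran between 29195546 and 75651352 at 8 hpf. Levels are given as CPM, counts scaled to a common library total, scaled with TMM factors, which are correction factors of each library's total. These factors were 0.896 and 1.02 at 9 hpf and lay between 0.812 and 1.19 at 8 hpf. Each of the 2 columns of 9 hpf was compared record by record with every other column, and 1 of those stood apart. No such comparison among columns of 8 hpf or earlier is given here. In 0 of the 31067 records did the library 1 hpf 2012_N7 have a smaller count than 9 hpf 2012_37, and the total of 2012_37 equalled 83.69% of the total of that 1 hpf library, whereas the next column, 2 hpf 2012_N6, was below 2012_37 in 8178 records. On log2(CPM + 1) that 1 hpf library was also the most alike of all other libraries to 2012_37 (r = 0.9995 across 22121 transcripts). It thus looks as if it held the counts of 2012_37, and which of these columns or labels is affected could not be settled from the files. The 1 hpf library was left out of the fits of the 7 libraries and entered only the alternatives fitted over all 31. Every value given for 9 hpf in 2012 rests on 2012_37 alone, and the counts of non-overlapping transcripts are also given without it.

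The question of the first comparison was which transcripts differ in level between 9 and 8 hpf. No transcript did so past the threshold, and by their correlation the 2 libraries of 9 hpf were less alike than any pair of libraries of 8 hpf. The edgeR quasi-likelihood test called 0 of 22121 transcripts higher (0%) and 0 lower (0%) at an adjusted p of 0.05, and the smallest adjusted p was 0.9999. Before adjustment, 480 transcripts (2.17%) had a p under 0.05, 429 of them higher and 51 lower at 9 hpf. DESeq2 also called 0, with 608 transcripts under 0.05 before adjustment, and limma called 0 on log2(RPKM + 1), with 148. The median log2 fold change over all 22121 transcripts was -0.08. The common biological coefficient of variation, the typical relative spread of a transcript between libraries of 1 hour, was 0.5928. With the code year as a term, the hour again had 0 calls, and the year itself had 10 (0.0452%), all lower in 2013 than in 2012. Fits without 2012_37 or without 2013_49 leave 1 library at 9 hpf, so their counts are not set beside these.

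How alike the libraries were was read as Pearson's r across the 22121 transcripts on log2(CPM + 1), as a description of pairs of libraries that differ in depth. The 2 libraries of 9 hpf had an r of 0.925 with each other. Library 2013_49 had values between 0.909 and 0.962 with the 5 libraries of 8 hpf (median 0.939), and 2012_37 had values between 0.968 and 0.987 (median 0.975). Among themselves the 8 hpf libraries had values between 0.936 and 0.986 (median 0.9625). By the medians, 2012_37 was as close to the 8 hpf libraries as these were to each other, and 2013_49 was less so. On the first principal component, which held 50.6% of the variance, 2013_49 scored 91.6 and 2012_37 scored -32.8, while the 8 hpf libraries ran from -72.3 for 2013_18 to 49.2 for 2012_N8B. The hours did not separate on this axis, and neither did the code years.

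**Figure D1:**
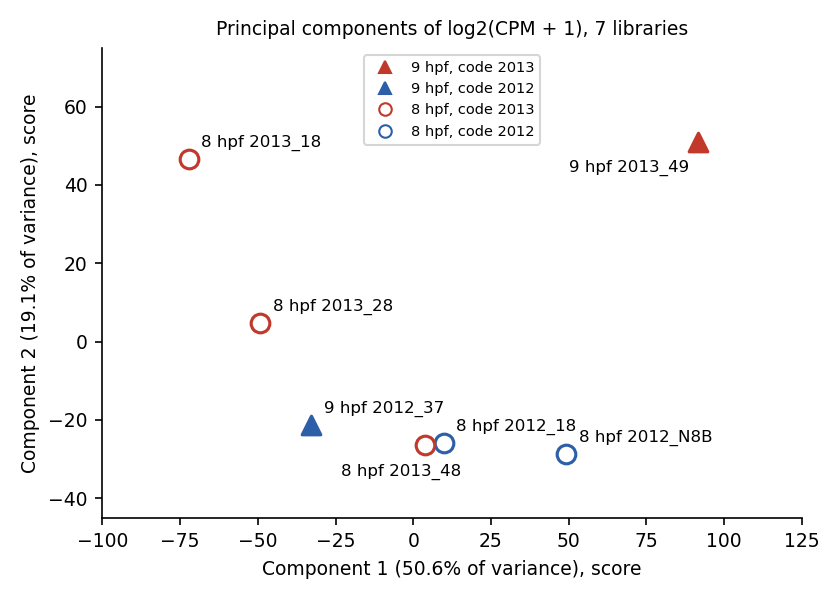
Principal components of log2(CPM + 1) over 22121 transcripts in the 7 libraries, the first component on the x axis (50.6% of variance) and the second on the y axis (19.1%), with 9 hpf as triangles, 8 hpf as open circles, codes of 2013 in red and codes of 2012 in blue. The triangle of 2013_49 stands at the right at 91.6, and the triangle of 2012_37 at -32.8 lies between circles of 8 hpf.

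A second reading needed no model and counted transcripts whose levels did not overlap between the hours. Both libraries of 9 hpf lay above all 5 libraries of 8 hpf for 215 transcripts (0.972%), and below all 5 for 357 (1.61%). Of the 215, 129 (60%) had a mean of at least 1 CPM at 9 hpf and 47 (21.9%) a mean of at least 10 CPM, beside 63% and 34.9% of all tested. Of the 357, 139 (38.9%) reached 1 CPM and 46 (12.9%) reached 10 CPM on average at 8 hpf, beside 62.1% and 35% of all tested. The gap was mostly small, since the lower library of 9 hpf reached 1.5 times the highest of 8 hpf for 29 transcripts and 2 times for 9, and the mirror condition held for 44 and 16 transcripts. The median log2 fold change was 0.998 for the higher and -0.998 for the lower transcripts, sizes that follow in part from the choice of non-overlapping records. The median length was 1333 bases for the higher and 1117 bases for the lower ones, against 1515 bases for all tested.

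Leaving out a library drops a condition on the same 22121 transcripts, so each count could then only stay or rise. With 1 library at 9 hpf a transcript passes more easily than with 2. Those counts are therefore not comparable with the 215 and 357. Without 2012_37, 2013_49 alone lay above all 8 hpf libraries for 5519 transcripts and below them for 5785. Without 2013_49, 2012_37 alone lay above for 1339 and below for 1745. Leaving out 2013_18 gave 452 above and 863 below, 2013_28 gave 346 and 661, and 2013_48 gave 439 and 559. Leaving out 2012_N8B gave 536 and 520, and 2012_18 gave 280 and 418. Scaling by library totals alone lowered the transcripts above to 131 and left 355 below.

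The 4 transcripts named here were those with the smallest unadjusted p among non-overlapping transcripts that averaged 10 CPM or more in the higher hour, 2 in each direction, and none passed the test. Mle_006617, a record of 2839 bases, had 19.4 and 70.5 CPM in 2013_49 and 2012_37 at 9 hpf, against 1.11, 1.81 and 4.42 CPM in 2013_18, 2013_28 and 2013_48 and 8.92 and 10 CPM in 2012_18 and 2012_N8B at 8 hpf. Its log2 fold change was 3.09 ± 0.77 (SE, n = 2 and 5; edgeR adjusted p = 0.9999). Levels at 9 hpf were the highest within each year, and at both hours the libraries of 2012 were above those of 2013. The same order of years held earlier. In the 9 libraries of 2012 from 1 to 7 hpf the transcript ran between 3.31 and 75.9 CPM, and in the 15 libraries of 2013 between 0.458 and 2.53 CPM (scaled over all 31 libraries). The 75.9 CPM are those of 1 hpf 2012_N7, which is no independent early level beside the 60.3 CPM of 2012_37 on this scale, and the next highest value was 52.5 CPM in 6 hpf 2012_N2.

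Mle_004009 (1109 bases) had 65.6 and 36 CPM in 2013_49 and 2012_37, against 16.2, 12.2 and 19.7 CPM in the 8 hpf libraries of 2013 and 20.8 and 23.7 CPM in those of 2012. The 2 libraries of 9 hpf were apart from all 5 of 8 hpf, and the log2 fold change was 1.45 ± 0.41 (SE; edgeR adjusted p = 0.9999). On the scale of all 31 libraries, where 2013_49 had 52.6 and 2012_37 had 30.8 CPM, the transcript had a median of 2.13 CPM from 1 to 7 hpf in libraries of 2013, with a highest value of 18.5 CPM in 7 hpf 2013_47. In libraries of 2012 the median was 29.8 CPM and the highest value 59 CPM in 3 hpf 2012_N5, above 2012_37.

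Among the lower transcripts, Mle_007398 (2215 bases) had 1.65 and 5.7 CPM in 2013_49 and 2012_37, against 16.2, 15.5 and 6.43 CPM in the 8 hpf libraries of 2013 and 14 and 5.99 CPM in those of 2012. The highest library of 9 hpf was close to the lowest of 8 hpf. The log2 fold change was -1.66 ± 0.68 (SE; edgeR adjusted p = 0.9999). All 24 earlier libraries were lower than all 5 of 8 hpf for this transcript on the scale of all libraries, with a highest earlier value of 4.45 CPM in 4 hpf 2013_34 and a lowest 8 hpf value of 5.82 CPM. Its level at 9 hpf on that scale was 1.32 CPM in 2013_49 and 4.87 CPM in 2012_37.

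Mle_015114 (2789 bases) had 6.22 and 8.58 CPM in 2013_49 and 2012_37, against 15, 25.4 and 26.5 CPM in the 8 hpf libraries of 2013 and 13.4 and 10.6 CPM in those of 2012, with a log2 fold change of -1.29 ± 0.53 (SE; edgeR adjusted p = 0.9999). It differs from Mle_007398 in its earlier course, since its highest value came before 8 hpf, at 45.1 CPM in 6 hpf 2012_23.

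**Figure D2:**
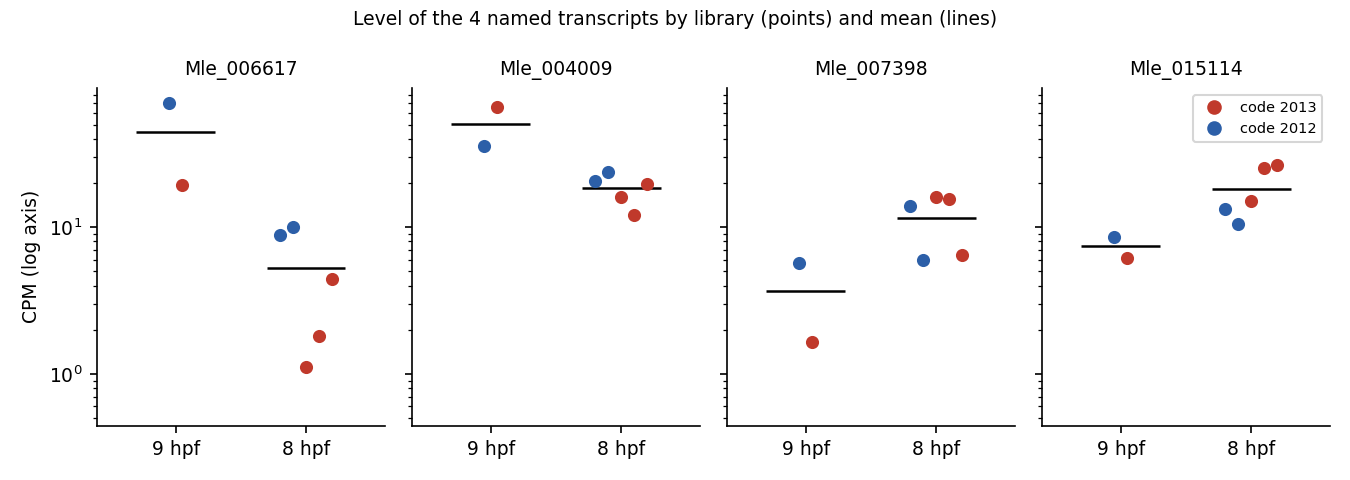
CPM on a log axis of the 4 named transcripts in the 2 libraries of 9 hpf (left) and the 5 libraries of 8 hpf (right), one point per library, with red for codes of 2013, blue for codes of 2012 and lines for the means. The hours do not overlap for any of the 4, which is how they were chosen, and for Mle_006617 the blue points lie above the red ones at both hours.

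Read within each year alone, the 9 hpf libraries differed from 8 hpf in opposite directions for many transcripts. Library 2013_49 lay above all 3 libraries of 8 hpf of 2013 for 7420 transcripts (33.5%) and below them for 6751 (30.5%). Library 2012_37 lay above both of 2012 for 8009 (36.2%) and below for 10186 (46%). The position was the same in both years for 2155 transcripts (9.74%), 819 above and 1336 below. It was opposite for 9719 (43.9%), of which 5345 were above in 2013 and below in 2012, and 4374 were below in 2013 and above in 2012. Each year has 1 library of 9 hpf, so the hour within a year has no replicate. With only 2 or 3 libraries of 8 hpf to pass, these counts are not comparable with the 215 and 357 over both years.

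The sizes of the differences showed the same opposition. For the 13892 transcripts that averaged 1 CPM or more over the 7 libraries, the difference of each 9 hpf library from the mean of the 8 hpf libraries of its year was taken on log2(CPM + 1), and no library entered both differences. The sign was the same in both years for 3050 transcripts (21.96%), 1581 higher and 1469 lower at 9 hpf. In 4766 transcripts 9 hpf was higher in 2013 and lower in 2012, and in 6073 it was lower in 2013 and higher in 2012. Across the transcripts Pearson's r of the 2 differences was -0.72 and Spearman's rho was -0.72, as a description, since transcripts of 1 library share its depth and scaling and are not independent.

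The differences were wider in 2013, where the middle 50% of transcripts lay between -0.80 and 0.63, than in 2012, where they lay between -0.34 and 0.46. A difference of at least 2-fold was held by 2320 transcripts higher and 2567 lower at 9 hpf in 2013, and by 407 higher and 761 lower in 2012. Both years passed 2-fold in the same direction for 15 transcripts that were higher and 3 that were lower. They passed 2-fold in opposite directions for 633 that were higher in 2013 and for 280 that were higher in 2012. An interaction term in edgeR, the hour difference of 2013 minus that of 2012, had 0 calls among 22121 (0%) and 4670 unadjusted p-values under 0.05 (21.1%), 2267 of them above 0 and 2403 below, with 3 residual degrees of freedom.

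**Figure D3:**
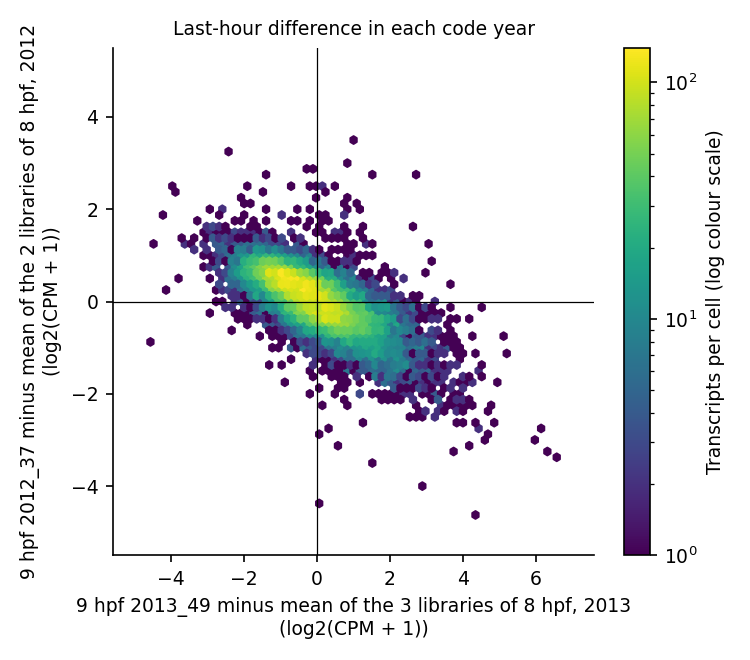
Difference of 9 hpf from 8 hpf on log2(CPM + 1) in libraries of 2013 (x axis) and of 2012 (y axis) for 13892 transcripts, with the number of transcripts per cell as colour on a log scale. The cloud runs from the upper left to the lower right (r = -0.72), and 21.96% of transcripts have the same sign in both years.

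The last hour was also set against the course before it, which was read in libraries of 2013 that enter neither difference. The difference of 7 from 1 hpf in 2013 had a Pearson's r of 0.519 across the 13892 transcripts with the last-hour difference of 2013, and of -0.516 with that of 2012. In 2013, transcripts higher at 7 than at 1 hpf thus tended to be higher still in the 9 hpf library than in the 8 hpf libraries. In 2012 they tended to be lower. Against the difference of 7 from 6 hpf, r was 0.205 for 2013 and -0.128 for 2012. Libraries 2013_47 at 7 hpf and 2013_41 at 1 hpf share the code series 2013_4 with 2013_49. Of all other libraries, 2013_47 and 2012_N8B were the most alike to 2013_49 (r = 0.962 each). Whether likeness within this series adds to the values for 2013 was not tested.

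Transcripts were next grouped by their course from 1 to 7 hpf in libraries of 2013, so that no library of 8 or 9 hpf chose a group. Appearing transcripts were under 1 CPM in both libraries of 1 hpf and at 5 CPM or more in all 3 libraries of 7 hpf. Maternal transcripts had at least 10 CPM in both libraries of 1 hpf, and were lowered if each library of 7 hpf was under 0.5 times the lower of these, or kept if every 7 hpf library was within 2-fold of the 1 hpf mean. These rules gave 234 appearing, 555 maternal lowered and 1975 maternal kept transcripts, all of which passed the filter on low counts. The edgeR test called 0 in each group.

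The appearing group was higher at 9 hpf in 2013 and lower in 2012. In 2013, 72.2% of its 234 transcripts were above the 8 hpf mean with a median log2 difference of 0.60, against 49.9% and -0.000263 of all 22121 tested. In 2012, 24.4% were above with a median of -0.36, against 43.6% and -0.06 of all. Both libraries of 9 hpf lay above all 5 of 8 hpf for 0 appearing transcripts and below for 5 (2.14%), against 0.972% and 1.61% of all tested. The group took 2.38% of the counts of 2013_49 and 1.12% of those of 2012_37, against 0.871%, 1.17% and 2.23% in the 8 hpf libraries of 2013 and 1.83% and 2.09% in those of 2012. The range of 8 hpf thus contained 1 of the 2 values of 9 hpf, and 2013_49 was close above it.

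The maternal lowered group went the other way in each year. In 2013, 7.03% of its 555 transcripts were above the 8 hpf mean with a median of -0.89, and in 2012, 92.6% were above with a median of 0.48. It took 1.26% of the counts of 2013_49 and 2.87% of those of 2012_37, against 1.96%, 1.91% and 3.39% at 8 hpf in 2013 and 2.28% and 2.31% in 2012. The share in 2013_49 was below every library of 8 hpf, and that in 2012_37 was above all but 2013_48. The maternal kept group was higher than the 8 hpf mean for 40.2% in 2013, with a median of -0.16, and for 80.9% in 2012, with a median of 0.30. Its share of counts was 38.7% and 38.3% at 9 hpf, within the range of 32.8% to 41.8% at 8 hpf. Against 2013_48 alone, the median of the maternal kept group in 2013_49 was 0.32, beside -0.02 of all tested. Its direction in 2013 thus depended on the 8 hpf library. The appearing and maternal lowered groups kept theirs, with medians of 0.25 and -1.06. Against the 8 hpf mean of each year, the directions of the medians of all 3 groups were the same with RLE factors and with library totals alone. The groups themselves changed in size, to 300 appearing, 107 maternal lowered and 2946 maternal kept transcripts with RLE factors and to 250, 174 and 2512 by totals. Defined without code series 2013_4 they held 279, 1511 and 3250.

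Within code series 2013_4, which has 1 library at each of 6, 7, 8 and 9 hpf, the appearing share was 1.26%, 1.53%, 2.23% and 2.38% in that order. The maternal lowered share in the same order was 1.33%, 1.33%, 3.39% and 1.26%. In the maternal lowered group 2013_48 at 8 hpf had the highest share of the 4, and 2013_49 was close to 6 and 7 hpf. Libraries 2013_17, 2013_27 and 2013_47 at 7 hpf were among those that chose the groups, so their shares follow in part from the choice. A rise of the maternal lowered share after them is thus favoured by the choice. The share was 1.73% in 2013_17 and 1.96% in 2013_18, and 1.48% in 2013_27 and 1.91% in 2013_28. In libraries of 2012, which had no part in the choice, it fell from 4.68% in 2012_N1 at 7 hpf to 2.31% in 2012_N8B. No label says that the 4 libraries of series 2013_4 came from the same embryos, and the series has no replicate.

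**Figure D4:**
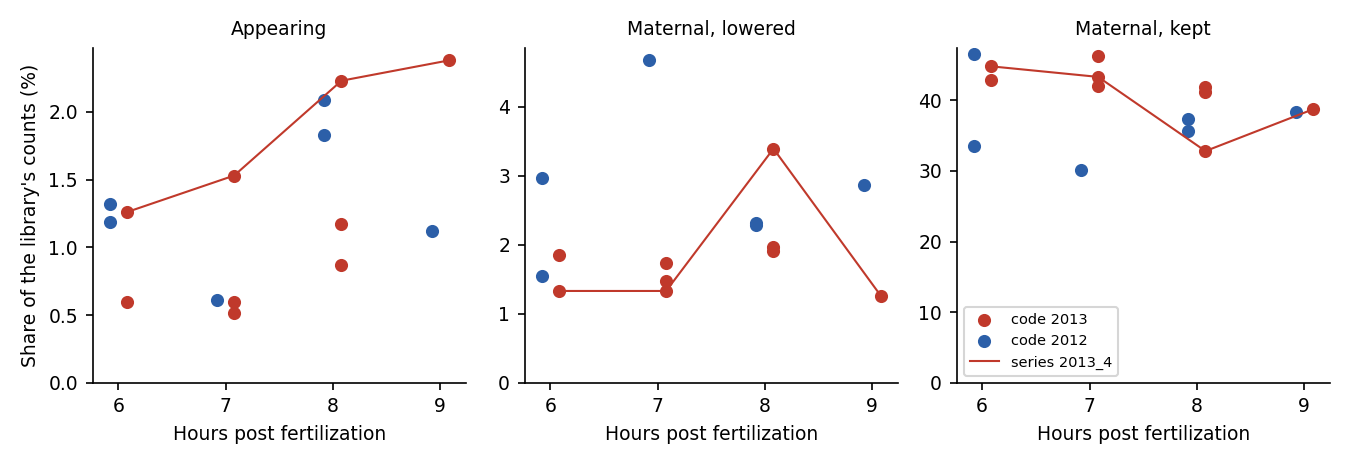
Share of each library's counts (%) taken by the 234 appearing, 555 maternal lowered and 1975 maternal kept transcripts from 6 to 9 hpf, one point per library, with red for codes of 2013, blue for codes of 2012 and a line through code series 2013_4. At 9 hpf the appearing share is 2.38% in 2013_49 and 1.12% in 2012_37, and the maternal lowered share is 1.26% and 2.87%.

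The record with the highest level in the hour that defines each group is given by library. Mle_010150 (736 bases), the highest of the appearing group at 7 hpf, had 37.9 and 109 CPM in 2013_49 and 2012_37, against 180, 535 and 111 CPM in the 8 hpf libraries of 2013 and 181 and 80.7 CPM in those of 2012. It was lower in 2013_49 than in all 8 hpf libraries, unlike most of its group, and the hours overlapped. Mle_030729 (2728 bases) of the maternal lowered group had 90.7 and 562 CPM in 2013_49 and 2012_37, against 851, 496 and 173 CPM in the 8 hpf libraries of 2013 and 263 and 212 CPM in those of 2012. It was below its own year at 9 hpf in 2013 and above it in 2012, as the group was. Mle_005495 (1697 bases) of the maternal kept group had 12900 and 4600 CPM in 2013_49 and 2012_37, against 8810, 4420 and 3410 CPM in the 8 hpf libraries of 2013 and 4930 and 5950 CPM in those of 2012. Here 2013_49 was above all libraries of 8 hpf and 2012_37 was among them. Against the 8 hpf libraries of its own year, 9 hpf was higher in 2013 and lower in 2012, unlike most of the group.

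Measures of each library as a whole did not separate the hours. The libraries had 13718 and 13288 transcripts at 1 CPM or more at 9 hpf, against 11896, 12340 and 14174 in the 8 hpf libraries of 2013 and 14157 and 15127 in those of 2012, with means of 13503 ± 304 at 9 hpf and 13539 ± 1364 at 8 hpf (SD, n = 2 and 5; exact permutation test, two-sided, p = 0.952). The 10 most abundant transcripts took 7.5% ± 0.748 of counts at 9 hpf and 7.51% ± 1.33 at 8 hpf (exact permutation p = 1), and the 100 most abundant took 24.8% ± 3.65 and 23.3% ± 1.28 (exact permutation p = 0.333). The shares of the 3 groups had exact permutation p-values of 0.762 for appearing, 0.619 for maternal lowered and 0.857 for maternal kept transcripts. All 6 measures had an adjusted p of 1. With 2 libraries against 5 there are 21 arrangements, and the smallest p they allow is 0.0476. The most abundant record was Mle_005005 (1573 bases) in every one of the 7 libraries, with 1.37% and 2.08% of counts in 2013_49 and 2012_37 and between 1.09% and 3.29% at 8 hpf. Exact binomial (Clopper-Pearson) intervals of 95% around the shares of groups and of the most abundant transcripts reached at most 0.018 percentage points, and they cover counting error only.

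The pair of libraries with like codes, 2013_49 at 9 hpf against 2013_48 at 8 hpf, differed by at least 2-fold on log2(CPM + 1) in about equal numbers each way. There were 2430 transcripts higher (11%) and 2422 lower (10.9%) in 2013_49, and this is a comparison of 1 library with 1, with no test. By library totals alone, 1495 were higher and 3925 lower, so that 27.6% of those past 2-fold were higher, against 50.1% with TMM factors. The median difference over all 22121 transcripts was -0.20 by totals and -0.02 with TMM factors. Among the 2422 lower transcripts were 300 of the 555 maternal lowered group. Among the 2430 higher ones were 64 of the 234 appearing and 350 of the 1975 maternal kept transcripts, while 30 appearing and 42 maternal kept ones were among the lower.

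The libraries of 2012, which did not choose these transcripts, went against the pair. Of the 2430 transcripts higher in 2013_49, 80.1% were lower in 2012_37 than in the 8 hpf libraries of 2012, against 56.4% of all tested, with a median log2 difference of -0.41. Of the 2422 lower ones, 85.3% were higher in 2012_37, against 43.6% of all tested, with a median of 0.49 on the log2 scale. Both shares were also above those of all tested by library totals alone, at 90.9% beside 65.2% for the higher transcripts and 72.6% beside 34.8% for the lower. The 8 hpf libraries of 2012 themselves lay above the other 8 hpf libraries of 2013 for the higher transcripts, by a median of 0.33 on the log2 scale, and lay below them for the lower ones, with a median difference of -0.38, beside 0.08 over all tested.

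The earlier libraries of the same code series place the pair. The median level of the 2430 higher transcripts was 4.1, 7.4, 6.06 and 19.6 CPM at 6, 7, 8 and 9 hpf in series 2013_4. The median of the 2422 lower transcripts was 7.09, 5.37, 16.1 and 4.26 CPM. The lower transcripts were thus at their highest in 2013_48 and close together in the other 3 libraries. In 7 hpf 2013_47, 97.8% of the 2422 lower transcripts were already below their level in 2013_48, against 67.6% of all tested. Of the 2430 higher transcripts, 70.5% were above 2013_48 in 2013_47, against 32.1% of all tested. Library 2013_48 is part of both comparisons and chose these transcripts, so the shares describe it as much as 9 hpf.

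**Figure D5:**
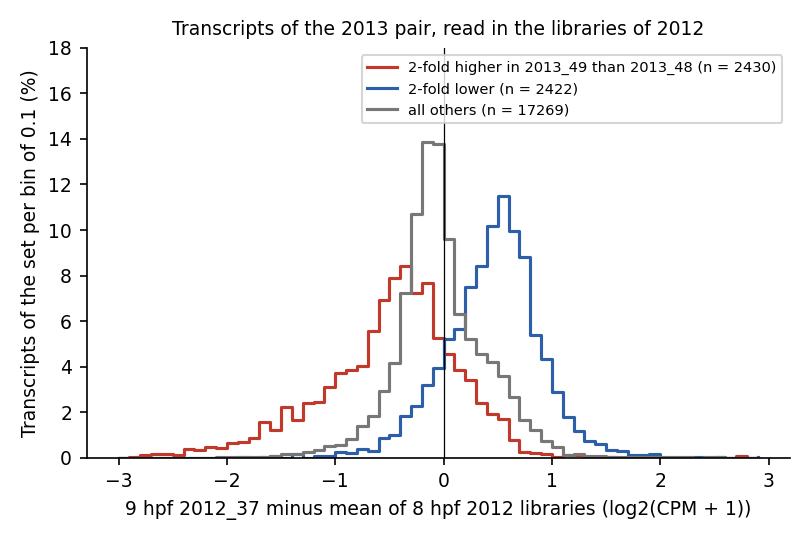
Distribution of the difference of 9 hpf 2012_37 from the mean of the 8 hpf libraries of 2012 (x axis, log2(CPM + 1)) for the transcripts at least 2-fold higher (red) or lower (blue) in 2013_49 than in 2013_48 and for all others (grey), as a percent of each set per bin of 0.1. The red median is -0.41 and the blue median is 0.49.

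A difference of at least 8-fold, with at least 10 CPM in the higher library, was held by 78 transcripts that were higher and 33 that were lower in 2013_49 than in 2013_48. This limit was set after the values were seen, and positions of 2013_49 and 2013_48 against other libraries follow in large part from the choice. In 2013_49, 77 of the 78 also exceeded both other 8 hpf libraries of 2013, beside 42.3% of all tested, and 31 of the 33 were below both of them, beside 37.3%. Both 8 hpf libraries of 2012 were above 2013_48 for 63 of the 78, beside 41.3%, and below it for 29 of the 33, beside 38.5%. Over all 31 libraries the highest level was in 2013_49 for 48 of the 78, beside 10.8%, and in 6 hpf 2012_N2, which had no part in the choice, for 17, beside 11.6%. In 2012, whose libraries did not choose these transcripts, 2 of the 78 and 1 of the 33 had the direction of the pair. Of all tested, 43.6% were higher and 56.4% lower in 2012_37 than in the 8 hpf libraries of 2012.

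The 2 highest differences of the pair show this distribution. Mle_010944 (2280 bases) had 240 and 2.3 CPM in 2013_49 and 2012_37, against 3.6, 0.802 and 1.09 CPM in the 8 hpf libraries of 2013 and 5.81 and 186 CPM in those of 2012, and its difference within the pair was 6.85 on the log2 scale. Mle_022914 (486 bases) had 947 and 10 CPM in 2013_49 and 2012_37, against 5.04, 14.8 and 15.4 CPM in the 8 hpf libraries of 2013 and 37.4 and 293 CPM in those of 2012, a difference within the pair of 5.85. For both transcripts 2013_49 and 2012_N8B were high and the other 5 libraries low, so that the level divided the libraries within each hour. Over all libraries both were also high in 6 hpf 2012_N2, at 346 CPM for Mle_010944 and 4830 CPM for Mle_022914. They were high as well in 2 hpf 2012_N6, at 170 and 280 CPM. In 2012_N6 the appearing group took 1.36% of counts, against 0.00915%, 0.409% and 0.00537% in 2 hpf 2013_22, 2013_32 and 2013_42. Whether its values are those of 2 hpf embryos was not tested.

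In the other direction, Mle_026615 (2585 bases) had 0.434 and 36.8 CPM in 2013_49 and 2012_37, against 6.86, 162 and 34.2 CPM in the 8 hpf libraries of 2013 and 115 and 38.8 CPM in those of 2012. It was lowest at 9 hpf within each year, with the value of 2012_37 close to that of 2012_N8B, and the difference within the pair was -4.62. Mle_025024 (431 bases) had 13.1 and 132 CPM in 2013_49 and 2012_37, against 270, 79.6 and 270 CPM in the 8 hpf libraries of 2013 and 63 and 47.7 CPM in those of 2012, a difference within the pair of -4.26. The level in 2013_49 was below every library of 8 hpf and that in 2012_37 was above both of its year. In 7 hpf 2013_47 this transcript had 7.07 CPM on the scale of all libraries, close to its 10.5 CPM in 2013_49.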

How the data were processed

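The deposited files are a table of whole-number read counts and a table of RPKM values (reads scaled by record length and a total) for 31067 records, both made by the authors. Bowtie2 and SAMtools are named in the submitters' processing notes. For the reference and the counting step, no entry is given in the sources used here; records with near-identical copies are therefore uncertain. The RPKM values the authors deposited carry 1 common total, 1413671828, the sum of all counts, and served only as an alternative. Counts of 7 libraries were filtered with filterByExpr (hour as group), scaled with TMM factors and tested with edgeR 4.0.16 in R 4.3.3 (quasi-likelihood, no covariate, Benjamini-Hochberg over 22121 records, threshold 0.05). Standard errors were taken as the size of the log2 fold change over the root of F. Differences elsewhere use log2(CPM + 1), which understates changes of scarce transcripts. Summaries were compared by exact permutation over 7 libraries. Scripts were tested on simulated data.

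Named transcripts follow 1 rule: 2 per direction with a mean of at least 10 CPM in the higher hour, non-overlapping and past the threshold, filled up by the smallest unadjusted p; for the pair, the 2 largest differences per direction at 10 CPM or more; 1 per group by the highest defining level; and the most abundant record at 9 hpf. The comparisons, groups and rules were chosen with earlier results of these data known. Alternatives were other scalings, filters, pseudocounts, margins, DESeq2 1.42.0, limma 3.58.1, a term for the code year, other sets of libraries and leaving out each library in turn. A count of 0 would allow up to 3 counts, 0.0418 to 0.0686 CPM at 9 hpf and 0.0332 to 0.12 CPM at 8 hpf, for counting error only, since molecules carry no identifiers. No sequences were used.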

Additional observations from a re-analysis of the deposited data

Results flagged for a closer look

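In 4 of 18 sets of 5 libraries of 8 hpf, 1 library lay far from the others by Dixon's ratio, which chance passes in about 1 in 20 groups of normally distributed values. The sets include CPM of transcripts picked for extreme differences, for which that rate was not tested. The maternal lowered share of counts was 3.39% in 2013_48. Mle_010944 had 186 CPM and Mle_022914 had 293 CPM in 2012_N8B, and Mle_010150 had 535 CPM in 2013_28. For 3 measures the 9 hpf libraries lay on opposite sides of all 8 hpf libraries of their own year, and these differences between years were not tested. The 100 most abundant transcripts took 27.3% of counts in 2013_49, above its year, and 22.2% in 2012_37, below its year. The appearing share was 2.38% in 2013_49 (above) and 1.12% in 2012_37 (below). The maternal lowered share was 1.26% in 2013_49 (below) and 2.87% in 2012_37 (above).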

How the results depend on the processing

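The edgeR count of 0 was also 0 under all 20 alternatives, with unadjusted p-values under 0.05 for 81 (all 31 libraries) to 3745 transcripts (without 2012_37). One of these, chosen after seeing the data, subtracted the counts of 2012_37 from 1 hpf 2012_N7. No log2 fold change of the 4 named transcripts changed sign. For fits that left out a library or used 1 year, the choice of non-overlapping transcripts fixed this in large part. Values ran from 0.62 to 3.74 for Mle_006617 and from 0.73 to 2.06 for Mle_004009. They ran from -2.93 to -0.10 for Mle_007398 and from -1.81 to -0.09 for Mle_015114. The ends of 0.62, -0.10 and -0.09 came from log2(deposited RPKM + 1), a scale with 1 common total for all libraries. On the other scales the smallest sizes were 1.86 for Mle_006617, -0.79 for Mle_007398 and -0.45 for Mle_015114. The 215 transcripts above became 131 by totals alone, 129 and 47 at means of 1 and 10 CPM, and 29 and 9 at margins of 1.5 and 2 times; leaving out 1 library gave 280 to 5519. The 357 below became 139 and 46 at those means and 44 and 16 at those margins. Leaving out 1 library gave 418 to 5785. A left-out library could not lower either count, and a limit on the mean or the margin could not raise it. The pair's 2430 higher and 2422 lower transcripts became 4376 and 4604 with a pseudocount of 0.1 CPM, 1415 and 1265 with 5 CPM, 471 and 350 at 4-fold, and 1495 and 3925 by totals alone. The median difference of a group from the 8 hpf mean on log2(CPM + 1), averaged over the 2 libraries of 9 hpf, was 0.10 for appearing transcripts (-0.34 without 2013_49 to 0.54 without 2012_37) and -0.24 for maternal lowered ones (0.28 without 2013_49 to -0.76 without 2012_37). The share with the same sign in both years was 23.62% by totals alone. The cause of these changes was not tested. No paired analysis was possible because the labels give the hours no shared replicate number and code series 2013_4 alone has a library at both, which makes 1 pair. With 2 libraries at 9 hpf, 1 in each year, the hour and the library cannot be told apart within a year.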
